A study of Sus scrofa with 92 samples.

Results

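The genes described here are those for the proteins of the cytosolic ribosome, measured in liver biopsies of pigs before and after hemorrhagic shock. They were taken from the deposited count table by symbol: every name that begins RPL or RPS and a digit, together with RPLP0, RPLP1, RPLP2 and RPSA, less the RPS6 kinases and names with a pseudogene ending, and with CPM values (a gene's count divided by its library's total and multiplied by 1000000) that add up to at least 10 over the libraries. This left 28 genes of the 13667 tested and of the 25322 identifiers in the table. Of these, 14 encode proteins of the small subunit, 7 proteins of the large subunit and 2 the acidic stalk proteins, while 5 are genes named after a ribosomal protein that they resemble (RPL7L1, RPL10L, RPL26L1, RPL36AL and RPS27L). The gene name table gave 57 symbols that meet the rule, and 29 of them had no identifier in the count table. RPLP0, RPSA, RPS6 and RPL13A are therefore not analysed here, and 28 genes are a part of the ribosome, not the whole of it.

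The ribosome translates mRNA into protein, its small subunit reading the message and its large subunit joining the amino acids. Cells make its proteins in matched amounts, their mRNAs are among the most abundant of any cell, and those mRNAs begin with a run of pyrimidines (the TOP motif) through which the kinase mTOR and the RNA-binding protein LARP1 set how much of them is translated. In the liver, which secretes most plasma proteins, the supply of ribosomes is known to follow feeding, and a change in translation of these mRNAs need not show in their abundance, which is what RNA-seq measures.

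The samples came from male Yorkshire-Landrace pigs that were all fasted overnight, splenectomized and then subjected to a chest injury, a liver crush injury, controlled hemorrhage and resuscitation. Fasted (FS) animals received nothing further, and carbohydrate prefed (CPF) animals received a bolus of sugar syrup before induction of anesthesia, so CPF is a short carbohydrate load on top of a fast. Each animal gave pieces of the edge of its liver before injury (Baseline, B). Later pieces were taken when full resuscitation had gone on for 2, 8 and 20 hours, timepoints named FR2, FR8 and FR20. The libraries used here come from 15 FS animals at B and 18 at each later timepoint, and from 5 CPF animals at B, FR2 and FR20 and 4 at FR8. Each library is a separate biopsy, and no group without shock is among the samples, so the effects of injury, resuscitation, anesthesia, repeated biopsy and time cannot be told apart. The questions asked were whether the transcripts of the ribosome changed after resuscitation, and whether they did so differently by fed state.

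Depth ran from 6877117 to 16613261 counts on genes, with a median of 12071957.5. For most members counting error was small beside the spread between animals. RPL10L held the lowest count of a member above 0, 92, and had a within-group SD of 0.22 log2 units. In it counting error was a larger part of the spread. Of the 92 libraries of the table, 4 were left out: the B libraries of FS animals 17, 19 and 21, in which albumin had no counts, and the FR8 library of CPF animal 3, which had too few counts to use. Albumin, the defining hepatocyte product, lay between 9521 and 192220 CPM in the libraries kept. The FR2 and FR8 libraries of FS animal 11 also stood apart. Of 6751 genes with a median count of at least 100 over the libraries, 661 and 658 were at 0 in them (at most 1 in any other library), among them RPS3, RPS3A and RPS4X, and 521 of the 658 at 0 in both lie next to another such gene when the 6751 are put in the order of their identifiers. In a comparison of each library with the mean profiles of the timepoints over 6158 other genes, 17 of the 88 libraries were nearest to a timepoint other than their label, and 12 of these came from the 13 libraries of FS animals 10, 17, 19 and 21. In FS animals 17, 19 and 21 the FR2 library was nearest FR8, the FR8 library nearest B and the FR20 library nearest FR2. In FS animal 10 the B, FR2 and FR8 libraries were nearest FR8, FR20 and FR2. The labels were kept, and the reason was not tested. Counts of members passing are given below without those 2 libraries of FS animal 11, and without FS animals 10, 17, 19 and 21. Values of single genes without them are given for some genes, and all other values include them.

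After resuscitation the ribosomal protein genes changed little in FS animals with TMM, a scaling explained below. On that scale those that passed higher were like-named genes, RPL7L1 by 1.58-fold, RPL36AL by 1.36-fold and RPL26L1 by 1.31-fold at FR2 (n = 18 libraries against 15). Among the subunit proteins RPS28, RPL5 and RPL11 fell to between 0.749 and 0.785 of their B level at FR8 or FR20. These falls did not pass on library totals, where all 3 lay above 0 at FR20. On library totals 10, 14 and 18 of the 28 genes passed higher at FR2, FR8 and FR20, with subunit proteins among them. Of all genes 27.6%, 33.4% and 48% did so. Levels here are CPM scaled by TMM, a factor per library that centres the bulk of genes between libraries. A change is the log2 fold change of edgeR's quasi-likelihood fit with a term for each animal, with its standard error (SE), and a gene passed when its p-value, adjusted over all genes tested by Benjamini-Hochberg, was under 0.05. In FR2vB (FR2 against B) 3 of the 28 genes passed higher and 1 lower, where 41.4% of all genes passed, 20.3% higher and 21.1% lower. In FR8vB 1 passed higher and 5 lower, beside 39.3% of all genes, 19.9% higher and 19.5% lower. In FR20vB 0 passed higher and 8 lower, although without TMM, on library totals alone, these 8 lay above 0. Of all genes 33.8% passed in FR20vB, 17.4% higher and 16.4% lower. Without FS animal 1 or 6 the 8 at FR20 became 3, and without animal 5 it became 1 higher and 4 lower. The count at FR20 was 3 lower with no animal terms, where 25% of all genes passed, and 4 lower with no filter. Without FS animal 10 the count at FR2 was 3 higher and 5 lower, and without animal 19 or 21 that at FR8 was 2 and 8. In biopsies of whole tissue, fewer cells of a type and less RNA per cell cannot be told apart.

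The sizes were small beside those of other genes. The median absolute log2 fold change of the 28 genes was 0.13 at FR2, 0.16 at FR8 and 0.12 at FR20, and that of all genes was 0.41, 0.39 and 0.35. Among the 4662 genes at least as abundant as the lowest member it was 0.36, 0.34 and 0.28, and 53.6%, 52.7% and 43.6% of these passed. No member passed with a 2-fold change, where 11%, 11.8% and 9.94% of all genes did, and the 95% interval of the change lay within 0.5 log2 units of 0 for 22, 21 and 22 of the 28. In all, 11 genes passed at one or more of the timepoints and 17 at none. RPS28 was the 1 gene that passed at each of the 3, and RPS28, RPL5, RPL11 and RPL10L were among those lower at both FR8 and FR20.

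**Figure D1:**
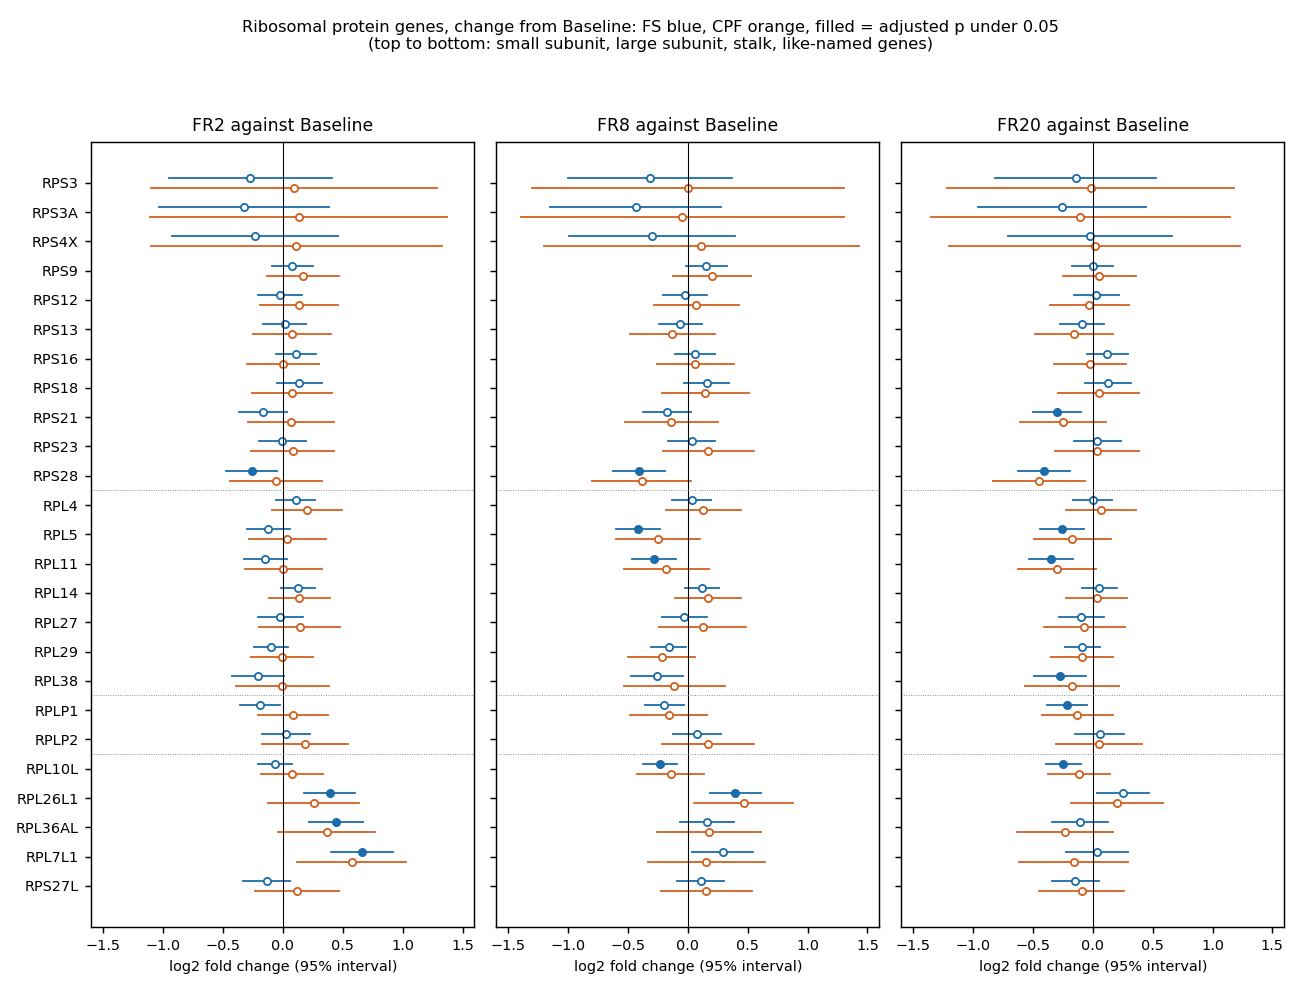
Log2 fold change from Baseline (x axis, with 95% interval) of 25 of the 28 genes (y axis, grouped as small subunit, large subunit, stalk and like-named genes) at FR2, FR8 and FR20 in FS (blue) and CPF (orange) animals, filled where adjusted p was under 0.05. Most points lie within 0.5 of 0, the like-named RPL7L1, RPL36AL and RPL26L1 lie to the right at FR2, and the wide intervals of RPS3, RPS3A and RPS4X follow the 2 libraries in which they are at 0. The filled points left of 0 at FR20 lie right of 0 when library totals replace TMM.

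In the small subunit 14 genes were measured, and 1, 2 and 3 of them passed lower at FR2, FR8 and FR20, with none higher. RPS28, a small protein near the channel through which mRNA leaves the subunit, changed most among those that passed. In FS animals its level ran from 365 to 935 CPM at B (median 565), from 354 to 1001 at FR2 (median 509), from 286 to 834 at FR8 (median 441) and from 339.8 to 785 at FR20 (median 421). All 4 ranges overlap, and the medians step down from B to FR20. Within animals with a B library RPS28 was lower in 13 of 15 at FR8 and in 13 of 15 at FR20. Its log2 fold change was -0.26 (SE 0.11, edgeR adjusted p = 0.0439) at FR2, -0.41 (SE 0.11, adjusted p = 0.00187) at FR8 and -0.41 (SE 0.11, adjusted p = 0.0022) at FR20, and on library totals -0.06, -0.14 and 0.01. Its highest FR2 value is that of FS animal 11, and the next was 705 CPM. The FR2 call was lost without FS animals 10, 17, 19 and 21 (-0.19, edgeR adjusted p = 0.0983).

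RPS21, a structural protein of the small subunit, passed at FR20 alone, with a median of 145 CPM at B (76.0 to 292) and 121 at FR20 (77.1 to 242). Its change there was -0.30 (SE 0.10, edgeR adjusted p = 0.016), and 0.11 on library totals, and it was lower in 11 of 15 animals.

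The fitted changes of RPS3, RPS3A and RPS4X, also proteins of the small subunit, rest on the 2 libraries of FS animal 11 in which they are at 0. RPS3A, with the lowest change of all members at FR2 (-0.32, SE 0.35) and FR8 (-0.44, SE 0.36), did not pass at either. Without these 2 libraries its change at FR2 was -0.12 (SE 0.10), that of RPS3 was -0.08 (SE 0.07) and that of RPS4X was -0.04 (SE 0.07). The medians of RPS3A in the 17 remaining libraries were 1060.5 CPM at FR2 (751 to 1435) and 962 at FR8 (675 to 1475), beside 1218 at B (697 to 1736). At FR8 RPS3A then passed lower (-0.24, edgeR adjusted p = 0.0433). Without both libraries 3 members passed higher and 4 lower at FR2 (42.9% of all genes), 1 and 8 at FR8 (40.4%) and 0 and 8 at FR20 (36.5%). The added genes at FR2 were RPL38, RPLP1 and RPS21, each lower. RPS9, RPS12, RPS13, RPS16, RPS18 and RPS23 did not pass at any timepoint, with changes between -0.09 (RPS13 at FR20) and 0.16 (RPS18 at FR8). On library totals RPS9, RPS16 and RPS18 passed higher at all 3 timepoints, by 0.28 to 0.54, and RPS12, RPS13 and RPS23 passed higher at FR20, by 0.32 to 0.45.

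Among the 7 proteins of the large subunit, 0 passed at FR2, 2 passed lower at FR8 and 3 at FR20. RPL5 and RPL11 bind the smallest ribosomal RNA of the large subunit, and when free of the ribosome both bind MDM2, the inhibitor of p53. RPL5 ran from 622 to 1423 CPM at B in FS animals (median 1116), from 805 to 1294 at FR2 (median 1001), from 586 to 1263 at FR8 (median 786) and from 780.2 to 1233 at FR20 (median 902). The groups overlap, the median is lowest at FR8, and 13 of 15 animals were lower there than at B. Its highest FR8 values are those of FS animals 17, 19 and 21 (1263, 1190 and 1128 CPM), and the next was 1099 CPM. Its change was -0.12 (adjusted p = 0.29) at FR2, -0.42 (SE 0.09, edgeR adjusted p = 0.000208) at FR8 and -0.26 (SE 0.09, adjusted p = 0.0231) at FR20, and 0.08, -0.14 and 0.17 on library totals.

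RPL11 ran from 529.9 to 1164 CPM at B (median 862), from 567 to 1154 at FR2 (median 774), from 474 to 1019 at FR8 (median 707) and from 523 to 1004 at FR20 (median 639). The medians step down with each timepoint while the ranges overlap, and 13 of 15 animals were lower at FR8 than at B and 11 of 15 at FR20. The highest FR2 value is that of FS animal 11, and the next was 956 CPM. Its change was -0.29 (SE 0.09, edgeR adjusted p = 0.01) at FR8 and -0.35 (SE 0.09, adjusted p = 0.00225) at FR20, and -0.02 and 0.07 on library totals. RPL38, known for its part in the translation of Hox mRNAs in the embryo, passed at FR20 (-0.27, SE 0.11, edgeR adjusted p = 0.0463, and 0.15 on library totals), from a median of 328 CPM at B (191 to 583) to 266 (203 to 494). RPL4, RPL14, RPL27 and RPL29 did not pass with TMM, with changes between -0.16 (RPL29 at FR8) and 0.13 (RPL14 at FR2). On library totals each of them passed higher at FR20, by 0.32 (RPL27) to 0.47 (RPL14).

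The stalk proteins RPLP1 and RPLP2 form the flexible arm of the large subunit that draws in the elongation factors. In the ribosome they sit together as pairs. RPLP1 ran from 643 to 1425 CPM at B (median 1029) and from 671 to 1383 at FR20 (median 811). It passed lower at FR20 (-0.22, SE 0.08, edgeR adjusted p = 0.0384), and on library totals it was higher (0.20, edgeR adjusted p = 0.0278). RPLP2, from 313 to 932 CPM at B (median 568) and from 431 to 1029 at FR20 (median 579), had a change of 0.06 (adjusted p = 0.698) there, and of 0.47 (edgeR adjusted p = 0.000176) on library totals. Both genes thus lay above 0 on library totals, and the difference between their changes was not tested.

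The like-named genes held the 3 largest rises. RPL7L1, a paralog of RPL7 found in precursors of the large subunit rather than in the finished ribosome, ran from 65.5 to 132 CPM at B in FS animals (mean 94.8), from 84.1 to 199 at FR2 (median 157), from 80.4 to 176 at FR8 (median 114) and from 59.4 to 205 at FR20 (median 87.8). The FR2 median lies above every B library and the ranges overlap, and the median at FR20 lies below that of B. Its highest FR20 values are those of FS animals 17, 19 and 21 (205, 175 and 147 CPM), and the next was 125 CPM. RPL7L1 was higher in 14 of 15 animals at FR2 and in 14 of 15 at FR8. Its change was 0.66 (SE 0.13, edgeR adjusted p = 3.74e-05) at FR2, 0.29 (SE 0.13, adjusted p = 0.0636) at FR8 and 0.03 (adjusted p = 0.873) at FR20. On library totals the change was 0.83 at FR2, and at FR20 RPL7L1 passed higher on that scale (0.43, edgeR adjusted p = 0.00113). Without FS animals 10, 17, 19 and 21 the change at FR2 with TMM was 0.81 (SE 0.09).

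RPL36AL, a near copy of RPL36A, ran from 58.2 to 87.9 CPM at B (median 71.4), from 65.8 to 154 at FR2 (median 101), from 50.2 to 121 at FR8 (median 80.6) and from 44.0 to 113 at FR20 (median 65.3). The FR2 median lies above every B library, and 14 of 15 animals were higher at FR2 than at B. Its change at FR2 was 0.44 (SE 0.11, edgeR adjusted p = 0.00128), and 0.62 on library totals. On library totals RPL36AL also passed higher at FR20 (0.28, edgeR adjusted p = 0.0123), where its TMM-scaled median lay below that at B. RPL26L1, a near copy of RPL26, ran from 19.2 to 39.7 CPM at B (median 32.5), from 28.2 to 69.3 at FR2 (median 41.0), from 26.0 to 58.4 at FR8 (median 41.6) and from 26.8 to 58.7 at FR20 (median 34.9). At FR2 and FR8 its median lies above the highest B library, the highest value at each is that of FS animal 11 (next 50.0 and 51.4 CPM), and 13 and 14 of 15 animals were higher. Its change was 0.39 (SE 0.11, edgeR adjusted p = 0.00273) at FR2, 0.40 (SE 0.11, adjusted p = 0.00223) at FR8 and 0.25 (SE 0.11, adjusted p = 0.0652) at FR20, and 0.59, 0.65 and 0.65 on library totals.

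RPL10L, a near copy of RPL10 known mainly from the testis, was the like-named gene that fell. It ran from 14.1 to 27.0 CPM at B (median 21.8), from 14.3 to 22.4 at FR8 (median 18.6) and from 14.2 to 27.5 at FR20 (median 17.8), with overlapping ranges. Its change was -0.23 (SE 0.07, edgeR adjusted p = 0.0077) at FR8 and -0.25 (SE 0.07, adjusted p = 0.00595) at FR20, and 0.03 and 0.17 on library totals. RPS27L, a relative of RPS27 that p53 can induce, did not pass against B with TMM, with changes of -0.13, 0.11 and -0.15. On library totals it passed higher at FR20 (0.26, edgeR adjusted p = 0.0232). How the authors' counting treated reads shared by near copies is not stated, and RPL36A, RPL10, RPL26 and RPS27 are not among the 28, so the values of RPL36AL, RPL10L, RPL26L1 and RPS27L may include reads of those genes or lack reads of their own.

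**Figure D2:**
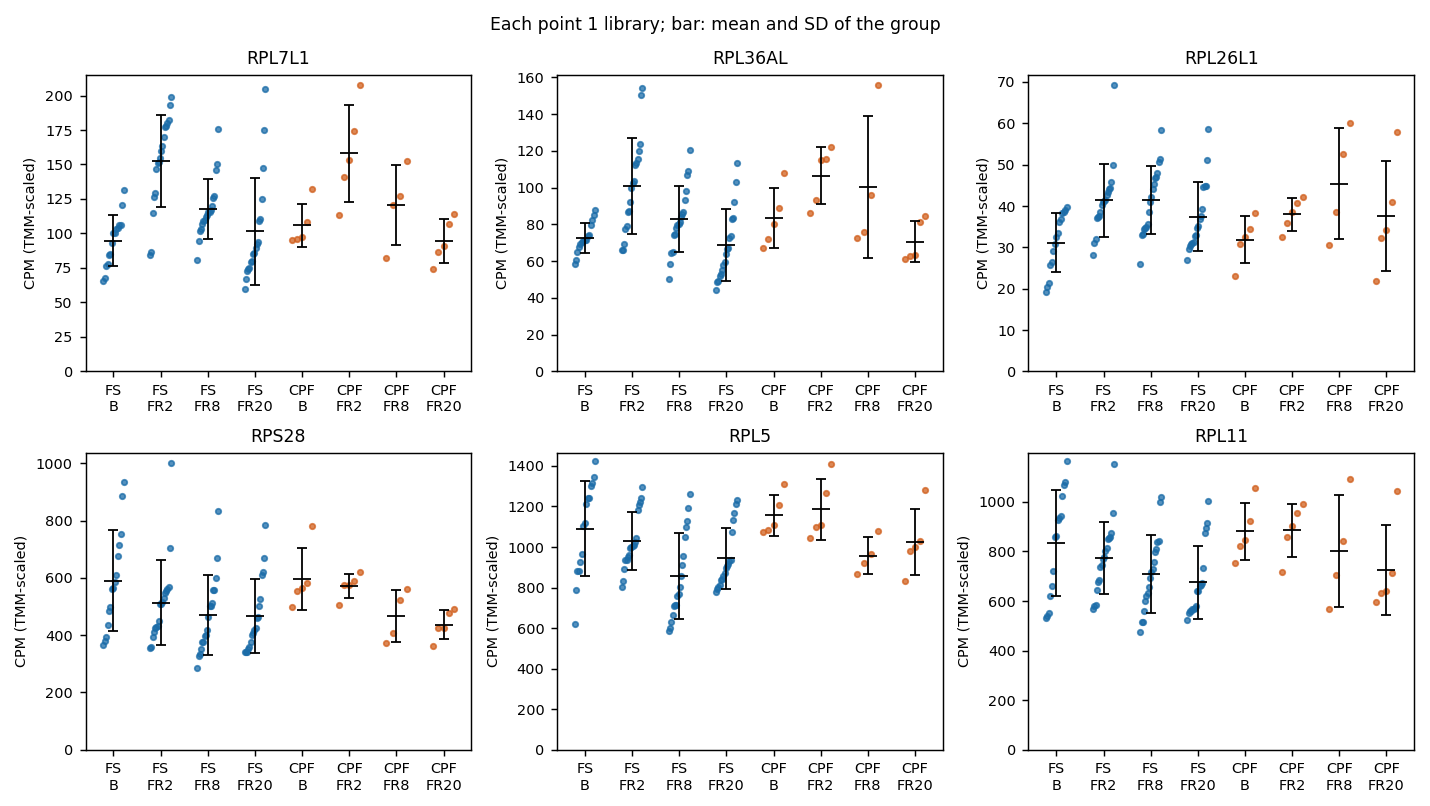
Level (CPM, TMM-scaled, linear axis from 0) of RPL7L1, RPL36AL, RPL26L1, RPS28, RPL5 and RPL11 in each library (points) by fed state (FS blue, CPF orange) and timepoint, with the mean and SD of each group (black). The first 3 genes peak at FR2 or FR8, with FS medians of 157, 101 and 41.0 CPM at FR2, and in FS animals the ranges of the 4 timepoints overlap for each gene.

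Between the later timepoints in FS animals, 1 member passed higher and 3 lower at FR8 against FR2 (28.4% of all genes passed, 14.5% higher and 13.9% lower), and none passed at FR20 against FR8 (6.39% of all genes). RPL5 was lower at FR8 than at FR2 (-0.30, SE 0.09, edgeR adjusted p = 0.00655). RPL7L1 (-0.37, SE 0.12, adjusted p = 0.0154) and RPL36AL (-0.28, SE 0.11, adjusted p = 0.0379) went from their higher FR2 levels toward those at B. RPS27L was higher at FR8 than at FR2 (0.24, SE 0.09, edgeR adjusted p = 0.0414). The count at FR8 against FR2 was 2 lower without any 1 of FS animals 1, 5, 9, 14, 16 and 22. From FR8 to FR20 the smallest adjusted p by edgeR's quasi-likelihood test was that of RPS27L (-0.26, adjusted p = 0.0813). There 3 members had an unadjusted p under 0.05, as did 21.7% of all genes, against 4 by DESeq2 and 3 by edgeR's likelihood ratio test, neither of which passed any, and without FS animal 17, 19 or 21 the quasi-likelihood test passed 1, 1 and 2 lower.

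Leaving out FS animals 10, 17, 19 and 21 gave fewer calls at FR2, as many at FR20 and more at FR8 and between the later timepoints. At FR2 3 members passed higher and 0 lower (50.3% of all genes), at FR8 2 and 8 (53.1%) and at FR20 0 and 8 (44.1%). RPL7L1 and RPL29 were the members added at FR8 that passed neither in all libraries nor without those of FS animal 11. From FR2 to FR8 1 passed higher and 6 lower (48.2%), and from FR8 to FR20 1 higher and 3 lower (23.7%), the latter being RPL36AL (-0.39), RPL7L1 (-0.40) and RPS27L (-0.33).

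The direction of most falls rests on the scaling. With library totals in place of TMM, the median change of all genes moved up by 0.19, 0.25 and 0.41 at FR2, FR8 and FR20 in FS animals. On that scale 10 members passed higher at FR2 (27.6% of all genes), 14 at FR8 (33.4%) and 18 at FR20 (48%), and 0 lower at each, and 28 of 28 lay above 0 at FR20. A scaling factor moves all genes of a library alike, so the position of the members against the median of all genes could hardly differ between scales. The median of the 28 genes lay 0.14 below that of all genes at FR20 with TMM and 0.13 below it with library totals. With TMM 23 of the genes lay below, and with library totals 22. At FR2 the members' median was 0.01 above that of all genes with library totals and within 0.01 of it with TMM.

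The same holds for the counts themselves. In FS animals the 28 genes took between 0.954% and 1.58% of all counts at B, with a median of 1.31%. The median share was 1.42% at FR2, where libraries ran from 1.08% to 2.07%, and 1.41% at FR8, where they ran from 1.10% to 2.20%. At FR20 it was 1.55%, with libraries from 1.31% to 2.14%. The share was higher at FR20 than at B in 14 of 15 animals, and the summed TMM-scaled level in 6 of 15. Beside this, the median TMM factor moved from 0.851 at B to 1.12 at FR20, and the share of counts on 16 hepatocyte marker genes, among them ALB, went from a median of 22.5% at B to 19.1%, 15.3% and 11.8% at FR2, FR8 and FR20. The markers did not all move alike. On library totals 2 of the 16 passed higher and 8 lower at FR20, with FGG at 1.23 and ALB at -1.79. The part of the hepatocyte markers in the share of the ribosomal protein genes was not tested. In CPF animals the share was 1.37%, 1.49%, 1.40%, 1.56% and 1.21% at B in animals 3, 7, 8, 13 and 18, and 1.61%, 2.27%, 2.22%, 0.972% and 1.79% at FR20. Animal 13 was the 1 CPF animal with a lower share at FR20 than at B, and its FR20 library is the 1 CPF library whose profile was nearest to another timepoint, B.

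**Figure D3:**
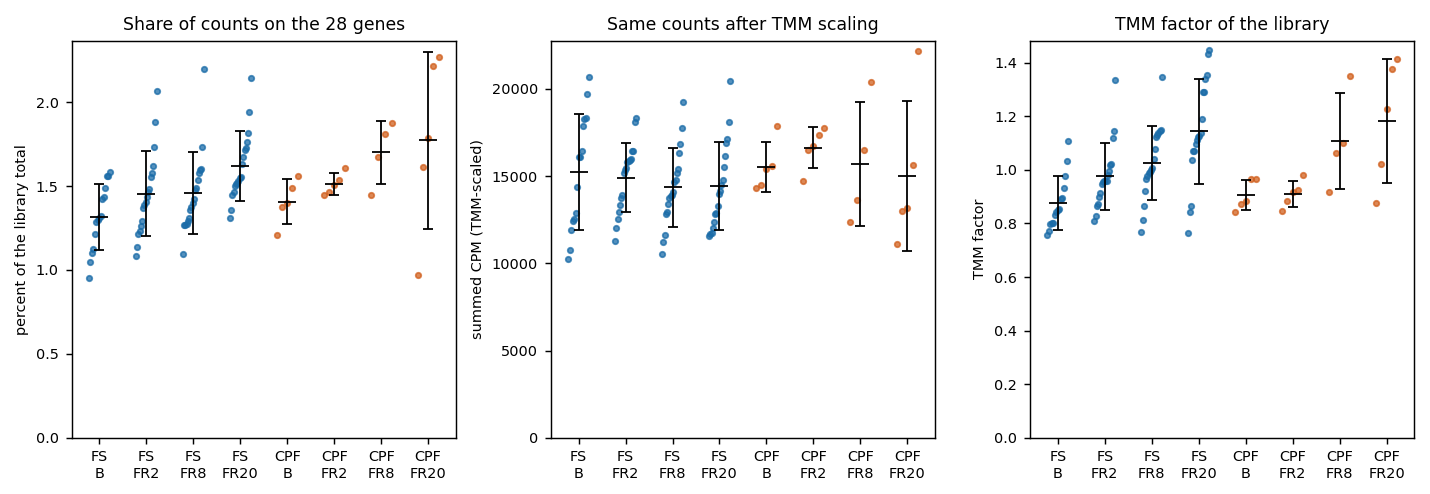
Share of each library's counts on the 28 genes (left, percent), their summed TMM-scaled level (middle, CPM) and the library's TMM factor (right), by fed state and timepoint, with 1 point a library and the mean and SD of each group in black. The share in FS libraries is higher at FR20 (median 1.55%) than at B (1.31%), the summed level is not (14061 against 16103 CPM), and the TMM factor goes from a median of 0.851 to 1.12.

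In CPF animals no member passed against B by edgeR's quasi-likelihood test at FR2 (3.41% of all genes passed), FR8 (13.3%) or FR20 (0.893%). At each timepoint 1 member had an unadjusted p under 0.05 by this test, by DESeq2 and by edgeR's likelihood ratio test, and neither of the other tools passed any. By the first test 20%, 28.4% and 16.5% of all genes had such a p at FR2, FR8 and FR20. With 5 animals, and 4 at FR8, the median SE of a member was 0.17 at FR2, 0.18 at FR8 and 0.17 at FR20, against 0.09 in FS animals. The 95% interval lay within 1 log2 unit of 0 for 24, 25 and 25 of the 28 genes. These intervals leave room for changes smaller than 2-fold in most members, which 4 or 5 animals could not resolve.

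RPL7L1 had the largest change in CPF animals at FR2. It measured 97.3, 95.8, 95.4, 133 and 108 CPM at B in animals 3, 7, 8, 13 and 18, and 153, 141, 114, 208 and 174 CPM at FR2. It was higher in 5 of 5 animals, by 0.58 on the log2 scale (SE 0.23, edgeR adjusted p = 0.14, 95% interval 0.12 to 1.03). Without FS animals 10, 17, 19 and 21, which share the estimate of the spread, the change was again 0.58 with an SE of 0.16, and it passed (edgeR adjusted p = 0.0105, 10.8% of all genes passing). RPL36AL measured 67.4, 108, 72.0, 89.1 and 80.4 CPM at B and 93.5, 122, 86.4, 115 and 115 at FR2, higher in 5 of 5 animals (0.37, SE 0.20, edgeR adjusted p = 0.303). At FR20 RPL36AL was below its B level in 5 of 5 with TMM (-0.23, SE 0.20, adjusted p = 0.608), and its change was 0.14 on library totals.

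RPS28 in CPF animals measured 554, 499.9, 566, 781 and 584 CPM at B, 575, 506, 574, 589 and 619 at FR2, and 363, 492, 477, 423 and 425 at FR20, and in animals 7, 8, 13 and 18 it measured 523, 406, 373 and 561 at FR8. The FR20 values lie below each animal's own B value in 5 of 5, and they lie below every B value of the group. The change at FR20 was -0.45 (SE 0.19, edgeR adjusted p = 0.22), and at FR8 -0.39 (SE 0.21, adjusted p = 0.213), against -0.09 and -0.12 on library totals. RPL5 measured 1205, 1082, 1108, 1313 and 1074 CPM at B, and 919, 865, 1079 and 967 at FR8 in animals 7, 8, 13 and 18, lower in 4 of 4 animals with TMM (-0.25, SE 0.17, edgeR adjusted p = 0.354), and its change was 0.03 on library totals. RPL26L1 had the highest change at FR8 (0.47, SE 0.21, adjusted p = 0.119), higher in 3 of 4 animals, and passed on library totals (0.73, edgeR adjusted p = 0.0204). Library totals moved the median change of all genes in CPF animals by 0.28 at FR8 and 0.37 at FR20, and 27 of the 28 genes then lay above 0 at each, against 15 and 8 with TMM.

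The changes from B were compared between fed states as interactions, the change in CPF less the change in FS. No member passed at FR2, FR8 or FR20 by edgeR's quasi-likelihood test, 0 had an unadjusted p under 0.05 by this test, by DESeq2 or by the likelihood ratio test, and no gene of all tested passed (0%), while 2.9%, 3.42% and 3.81% of all genes had an unadjusted p under 0.05 by the first test. The smallest p was that of RPLP1 at FR2 (0.28, SE 0.17, edgeR adjusted p = 1). For RPL7L1 at FR2 the interaction was -0.09 (95% interval -0.60 to 0.43), and for RPS28 at FR20 it was -0.04 (-0.48 to 0.40). The interval lay within 1 log2 unit of 0 for 25 of the 28 genes at each timepoint, RPS3, RPS3A and RPS4X being the others.

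Set against each other at one timepoint, CPF and FS libraries differed for 0 members at B (0.0342% of all genes passed), FR2 (0%), FR8 (0%) and FR20 (0%) by edgeR's quasi-likelihood test, and DESeq2 and the likelihood ratio test passed none. At an unadjusted p under 0.05 the counts were 0, 1, 2 and 0 of 28 by edgeR's quasi-likelihood test, 1 at FR2 and 2 at FR8 by DESeq2, and 0 and 1 by the likelihood ratio test. Of all genes 7.66%, 5.58%, 5.16% and 3.25% had such a p at B, FR2, FR8 and FR20 by the quasi-likelihood test. RPL14, a structural protein of the large subunit, had the smallest p of the members at all 4 timepoints, and was higher in CPF by 0.28 (SE 0.14) at B, 0.29 (SE 0.12) at FR2, 0.38 (SE 0.14) at FR8 and 0.26 (SE 0.15) at FR20. Its adjusted p by edgeR was 0.669, 0.885, 0.943 and 1.00. These 4 comparisons share animals and are not independent. RPL14 in CPF animals measured 331, 370.1, 337, 364 and 319 CPM at B, and FS animals ran from 181 to 377 (median 279), so the CPF values lie in the upper part of the FS range. At FR8 CPF animals 7, 8, 13 and 18 measured 553, 325, 377 and 361 CPM, beside 196 to 369 in FS animals (median 311).

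Across 86 libraries (all used but those of FS animal 11 at FR2 and FR8), the levels of most of the 28 genes varied together. In log2 CPM the 378 pairs of members had a median Pearson r of 0.646, from -0.14 to 0.957, and 266 pairs had an r over 0.5. After subtraction of each group's mean the median was 0.701, from -0.12 to 0.961, with 293 pairs over 0.5. RPL27 and RPS3A followed the median of the other members most closely (r 0.951 and 0.946). RPL36AL (0.173), RPL7L1 (0.425) and RPL10L (0.484) followed it least, and with the group means subtracted these 3 were again the least close (0.119, 0.497 and 0.537). The points share libraries and their scaling, and the members' median had an r of -0.456 with the log2 TMM factor and of -0.237 with the log2 library total. Within groups the members' SD was 0.30 log2 units at the median, against 0.38 for the 4662 genes at least as abundant. Outside the 28, the closest followers of their median had no symbol in the name table (r 0.965, 0.965 and 0.958 for the first 3). Of those with a symbol, the closest were COX4I1 (0.838), COPS9 (0.832) and YBX1 (0.83).

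Other genes of translation were measured in the same fit in FS animals, in which 20.3%, 19.9% and 17.4% of all genes passed higher at FR2, FR8 and FR20 and 21.1%, 19.5% and 16.4% lower. No list was tested against other genes. Of 17 initiation factors outside the eIF3 complex, which load the small subunit onto mRNA, 12 passed higher and 1 lower at FR2, 5 and 0 at FR8 and 4 and 1 at FR20, with medians of 0.42, 0.18 and 0.05. On library totals 13, 15 and 16 of the 17 passed higher and 0 lower. EIF4A1, the helicase that unwinds mRNA for the small subunit, had the highest change at FR2 (0.96, SE 0.18, edgeR adjusted p = 1.75e-05). Of 9 eIF3 subunits 5 passed higher at FR2 (median 0.33), while 2 were higher and 3 lower at FR8 and 2 higher and 4 lower at FR20, which became 4 and 1 and 5 and 0 on library totals. EIF3J was the highest at FR2, FR8 and FR20 (0.74, 0.56 and 0.42) and EIF3E the lowest (-0.16, -0.53 and -0.49, and 0.04, -0.25 and -0.05 on library totals). Of 3 elongation factors 0 passed at FR2, 2 were lower at FR8 (median -0.41) and 1 at FR20 (median -0.27), where on library totals none was lower. EEF2, which moves the ribosome along the mRNA, was lower at FR20 (-0.37, SE 0.09, edgeR adjusted p = 0.00163) with TMM and lay at 0.05 on library totals.

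The proteins of the mitochondrial ribosome, which translates the genes of the mitochondrial genome, had medians above 0 in FS animals. Of 43 measured, 10 passed higher and 5 lower at FR2, 19 and 0 at FR8 and 12 and 3 at FR20, with medians of 0.12, 0.17 and 0.15. At FR2 10 of 43 is near the 20.3% of all genes that passed higher. On library totals 22, 34 and 36 passed higher and 0 lower. MRPS10 had the highest change at FR2 (0.71, SE 0.11, edgeR adjusted p = 6.41e-07), MRPL35 at FR8 (0.79) and MRPL10 at FR20 (0.67). In CPF animals 1 of the 43 passed higher at FR2, 5 at FR8 and 0 at FR20, where 2%, 6.32% and 0.278% of all genes passed higher. The difference between the mitochondrial and the cytosolic genes was not tested as such. FAU, which encodes a ubiquitin-like protein fused to a small-subunit ribosomal protein and so falls outside the symbol rule, was higher at FR8 in FS animals by 0.89 (SE 0.19, edgeR adjusted p = 0.000119), more than any of the 28 genes. In CPF animals FAU had a change of 0.93 (SE 0.35, adjusted p = 0.0634) at FR8.

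Of 14 other mRNAs known to carry the TOP motif, FAU and EEF2 among them, 3 passed higher and 0 lower at FR2, 1 and 5 at FR8 and 1 and 3 at FR20, against 8 and 0, 6 and 1, and 9 and 0 on library totals. This list includes all 3 elongation factors and some of the eIF3 subunits counted above, so its counts are not separate from theirs. Of 16 genes of the mTOR pathway that controls TOP mRNAs, 3 passed higher and 3 lower at FR2, 3 and 5 at FR8 and 3 and 5 at FR20, against 4 and 2, 7 and 3, and 8 and 2 on library totals. The mTOR counts with TMM at FR2 are near the shares of all genes. LARP1, which binds the TOP motif, was higher at FR2 (0.77, SE 0.13, edgeR adjusted p = 6.18e-06). SESN2, a stress-induced inhibitor of mTOR, had the lowest change at each timepoint (-1.89, -2.53 and -2.19, and -1.72, -2.26 and -1.73 on library totals). These are mRNA levels, and neither mTOR activity nor translation was measured.

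**Figure D4:**
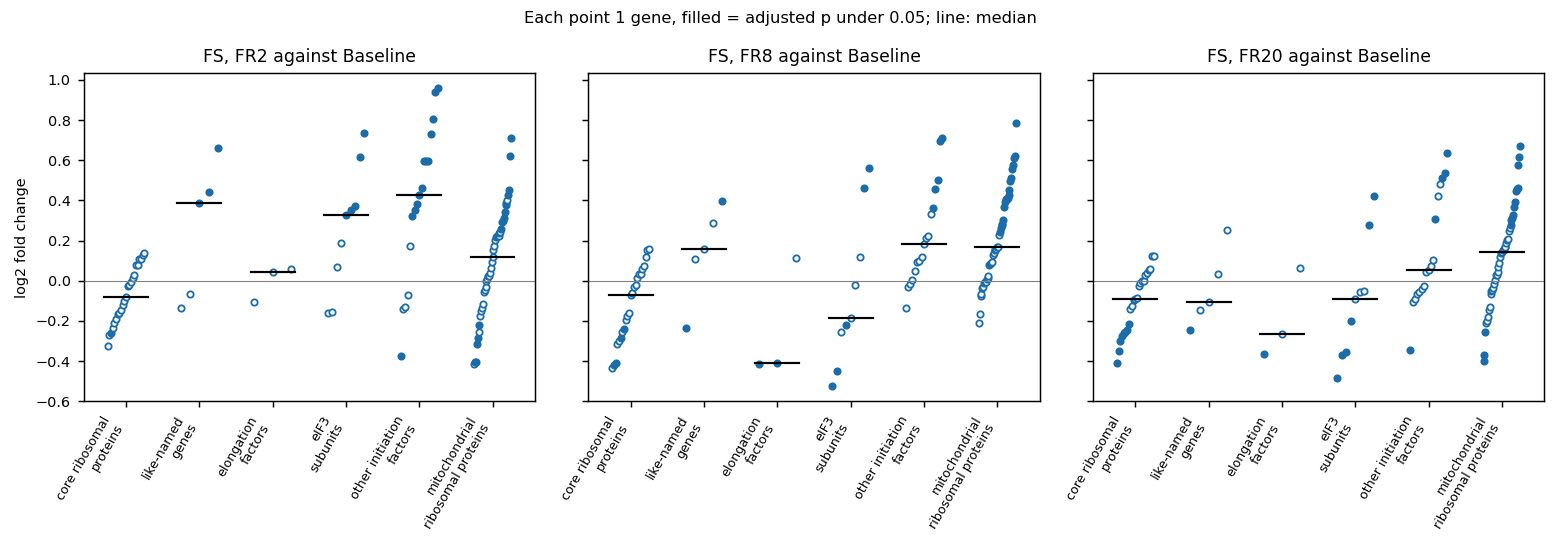
Log2 fold change from Baseline (y axis) in FS animals of each gene (points, filled where adjusted p was under 0.05) of the 23 ribosomal subunit and stalk proteins, the 5 like-named genes and 4 lists of other translation genes (x axis), at FR2, FR8 and FR20, with the median of each list as a line. The subunit proteins lie near 0 with a narrow spread, and 12 of 17 initiation factors at FR2 and 19 of 43 mitochondrial ribosomal proteins at FR8 are filled above 0 (TMM scaling, with library totals adding 0.19 to 0.41 to the median of all genes).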

How the data were processed

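RNA from liver biopsies was made into TruSeq libraries, and the authors deposited counts of reads per gene on pig Ensembl identifiers, not normalized. The submitters' processing notes name CASAVA 1.8.2, TopHat 1.5.0, SAMtools, HTSeq, edgeR 3.2.4 and the Sscrofa10.2 build. For HTSeq neither the mode nor the use of strand is given in the sources used here, so reads shared by near copies, processed pseudogenes or overlapping genes may have been dropped or assigned to either.

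The 92 columns were matched to samples by title, and 4 libraries were left out for the reasons given above. Symbols came from a gene name table, which named 11804 of the 25322 identifiers. The counts on genes of a library, from 6877117 to 16613261, set its precision, and any interval on a share covers counting error only.

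The genes tested were those whose CPM values over the libraries added up to 10 or more (13667 in the fit of changes). They were tested with edgeR 4.0.16 in R 4.3.3, by TMM scaling and the quasi-likelihood test with Benjamini-Hochberg adjustment. Changes from Baseline and between timepoints came from 1 fit of the 88 libraries with a term for each animal, since the sample titles give the animal and libraries of 1 animal are paired by it, with an interaction of fed state and timepoint. CPF was set against FS at each timepoint in a fit of that timepoint alone. FS animals without a Baseline library enter the first fit through their later libraries. Intervals are at 95%, and CPM per library use TMM-scaled totals with a prior count of 2 where logarithms were taken.

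The members, the lists and the tests were chosen with earlier results of these data known. Genes named are the 3 rising and 3 falling with the smallest adjusted p in a comparison or, where none passed, the 2 with the smallest p, the highest and lowest changes, the like-named genes, a list of well studied members, those that changed by more than 0.5, the highest and lowest genes of each translation list, ALB as the most abundant hepatocyte marker, and the 3 most similar outside genes. RPL29, RPL27 and the members listed as not passing complete the account and were named after their values were seen. For 3 of the 28 genes no separate values are reported here, and they count in the totals over the members. Most abundant genes by CPM are not ranked, since no gene lengths were used. Of the lists of markers of other cell types, summed levels are given in the closing section.

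The alternatives were RLE size factors, library totals, TMM factors without the members, a sum of CPM of at least 3, no filter, filterByExpr, DESeq2 1.42.0, edgeR's likelihood ratio test, no animal terms, the 3 albumin-free libraries kept, a fold threshold, and each animal left out. The fits less FS animal 11's libraries and less FS animals 10, 17, 19 and 21 were chosen after seeing the data. On simulated counts with 100 genes changed 1.5-fold and 100 changed 2-fold, the test of FR2vB in FS animals recovered 26 and 60 (2 false calls, 13580 genes), and that of FR8vB in CPF animals 0 and 13 (0 false calls, 13573 genes). For CPF against FS at B (11837 genes), the quasi-likelihood test recovered 7 and 27, with 4 false calls. The likelihood ratio test recovered 12 and 41 there (13 false calls), and DESeq2 14 and 41 (16 false calls). No call had the wrong sign. Few genes were changed in these simulations, whereas 41.4% of all genes passed at FR2vB in FS animals. The numbers recovered are therefore no measure of the power for the ribosomal protein genes.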

Additional observations from a re-analysis of the deposited data

Results flagged for a closer look

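In groups of 4 or 5 libraries, the 25 genes with values reported one by one and the share of counts on all 28 were compared over the 4 CPF groups, and 9 of these 104 combinations had a library far from the rest by Dixon's ratio of gap to range, where chance gives about 1 in 20. The genes vary together, so the combinations are not independent. At B, CPF animal 13 was the highest for RPL38 (411 CPM, next 299) and RPS21 (221, next 154), and CPF animal 18 was the lowest for RPS4X (839 CPM, next 959.7). At FR8, CPF animal 7 was the highest for RPS16 (221 CPM, next 137) and RPS18 (922, next 583). At FR20, CPF animal 7 was again the highest, for RPL4 (2683 CPM, next 1490.3), RPL11 (1043, next 714), RPL29 (826, next 585) and RPS27L (189 CPM, next 109.9).

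The 3 Baseline libraries left out for lack of albumin held a larger share of counts on the 28 genes than any FS Baseline library used, 1.70% in FS animal 17, 1.76% in FS animal 19 and 1.74% in FS animal 21, against a highest share of 1.58%. In them RPL36AL measured 28.7, 30.9 and 34.6 CPM, below the 58.5 to 88.4 CPM of the other FS Baseline libraries. For the other 27 members the 3 libraries did not all lie outside the range of the rest, though for some members single libraries did. RPLP1 measured 1487 and 1890 CPM in FS animals 17 and 19, against a highest of 1433. RPS28 measured 342 and 322 CPM in FS animals 17 and 21, against a lowest of 367. The FR8 library of CPF animal 3 that was left out had 1.14% of its few counts on these genes.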

How the results depend on the processing

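On library totals with no scaling factors the counts of members passing in FS animals were 10 at FR2vB, 14 at FR8vB and 18 at FR20vB, all higher, 2 at FR20 against FR8, and 1 at FR8vB in CPF animals. Of the 28 changes in FS animals 12 turned from below to above 0 at FR2vB, 10 at FR8vB and 20 at FR20vB. Among genes reported by name that passed on either scale these were, with others, RPL10L (0.032) at FR8vB, and at FR20vB RPS28 (0.0085), RPL11 (0.074), RPS21 (0.11), RPL38 (0.15), RPL10L (0.17), RPL5 (0.17), RPLP1 (0.20), RPS27L (0.26) and RPL36AL (0.28). With the 3 albumin-free Baseline libraries kept, 5 passed at FR8vB (3 higher, 2 lower), 2 at FR20vB (1 higher, 1 lower) and 2 at FR8 against FR2. Of all genes 29.8%, 22.7% and 21.2% then passed in these comparisons. With no filter beyond 1 count, 4 passed at FR20vB. Without the replicate block, that is with no animal terms to pair the libraries, 3 passed at FR20vB, and 3, 5 and 3 at FR2vB, FR8vB and FR8 against FR2. Of all genes 25% then passed at FR20vB, and 36.2%, 32.2% and 23.6% in the other comparisons. No member passed with a 2-fold threshold added, so the counts at FR2vB, FR8vB, FR20vB and FR8 against FR2 in FS animals were then 0.

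Further fits were chosen after seeing the data. Less the FR2 and FR8 libraries of FS animal 11, 7 members passed at FR2vB (3 higher, 4 lower), where 42.9% of all genes passed. Less FS animals 10, 17, 19 and 21, 10 passed at FR8vB, 7 at FR8 against FR2, 4 at FR20 against FR8 and 1 at FR2vB in CPF animals. Of all genes 53.1%, 48.2%, 23.7% and 10.8% then passed in these comparisons. RLE size factors, TMM factors without the members, a sum of CPM of at least 3, filterByExpr, DESeq2 and the likelihood ratio test kept all 15 counts within 1.5 times.

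With each FS animal left out in turn the counts in FS animals ran from 3 to 8 at FR2vB, from 5 to 10 at FR8vB, from 3 to 9 at FR20vB (3 without animal 1 or 6), from 2 to 5 at FR8 against FR2 and from 0 to 2 at FR20 against FR8. With each CPF animal left out they were 4 to 5, 6 to 8 and 8 for the first 3, and 0 to 1 at FR8vB in CPF animals (RPL26L1, without animal 13). The cause was not tested for any of these. The interactions, the comparisons of CPF with FS and FR20vB in CPF animals gave 0 under every alternative run. The lowest count of a member above 0 was 92, in RPL10L. For most members animals rather than depth set the precision, and CPF groups have 4 or 5 animals.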

Other observations

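Markers of other cell types were present at low summed levels in the biopsies, and their part in the changes above was not tested. In FS animals the median summed level of 7 Kupffer cell and macrophage markers went from 1591 CPM at B to 1066 at FR20, that of 4 neutrophil markers from 9.32 to 24.6, that of 12 T and NK cell markers from 90.8 to 58.3, that of 8 stellate and smooth muscle markers from 1065 to 1145, that of 7 endothelial markers from 306 to 363, that of 4 cholangiocyte markers from 51.4 to 107, that of 4 erythroid markers from 256 to 111, that of 5 B and plasma cell markers from 14.5 to 10.9, and that of 5 striated muscle markers from 6.71 to 3.63. The summed level of the 16 hepatocyte markers went from 259853 to 100890 CPM. Each sum follows its most abundant genes. Of the 4 cholangiocyte markers at FR20 against B, 1 passed higher (SPP1, 1.47) and 1 lower (SOX9, -0.69), with a median change of -0.19. On library totals 2 of the 16 hepatocyte markers passed higher and 8 lower. Of the 7 Kupffer cell and macrophage markers 2 passed higher and 2 lower on that scale. In CPF animal 13 the 28 genes went from 1.56% of counts at B to 0.972% at FR20.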
